A study of Mus musculus with 10 samples.

Results

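Toll-like receptors on dendritic cells pass their signal through a small set of adaptor proteins and kinases, and the RNA of 10 of these genes is described here: the LPS co-receptor gene Ly96 (MD-2), the adaptors Tirap, Myd88, Ticam2 (TRAM) and Ticam1 (TRIF), the IRAK family Irak4, Irak1, Irak2 and Irak3, and the kinase Tbk1. They were taken by name, through the Ensembl gene ID, from gene tables that list 41813 mouse genes. All 10 were found, and all 10 passed the filter on low counts. The rule uses gene names only.

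The series profiled mouse bone marrow-derived dendritic cells, carrying CD11c and much MHC class II by their labels, by RNA-seq in 6 libraries, 3 titled activated and 3 titled non-activated. In the series design the cells of both groups had been given LPS, the bacterial lipid that TLR4 detects, were loaded or not with an ovalbumin peptide, and were then kept for 24 h beside OT-II helper T cells (CD4+), whose transgenic receptor recognises that peptide. The sample labels instead call the activated libraries LPS-stimulated and the others not stimulated. Which description holds is not known, so the groups keep the names of their titles, and the comparison may be one of antigen-specific T cell contact or one of LPS. The strain, age and sex of the mice are not given in the sources used here, nor whether replicates were separate animals, so p-values measure the spread between these libraries only. ATAC-seq was done on another 4 samples, 2 a group, not analysed here.

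As background, MD-2 sits on the outside of TLR4 and holds the lipid part of LPS. TLR4 then engages a pair of adaptors for each of its branches. TIRAP brings in MyD88, which assembles with the kinases IRAK4, IRAK1 and IRAK2 and leads through TRAF6 to NF-kappaB and MAP kinases. TRAM brings in TRIF, which leads through TRAF3 to TBK1, the kinase that activates IRF3 and with it the interferon beta gene. IRAK-M, the product of Irak3, is best known as a brake on the MyD88 branch in macrophages and dendritic cells. Most other Toll-like receptors, and the receptors of IL-1, IL-18 and IL-33, use MyD88 as well, whereas TLR3 uses TRIF alone.

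The libraries held 21338012 to 27404937 expected counts, the read counts that RSEM estimates for each gene. All 11 dendritic cell markers were detected in every library. Itgax (CD11c) stood at 198 to 442 CPM (counts scaled to the TMM-normalised library size) and Cd74 at 5401 to 8522 CPM over the 6 libraries, and Flt3 and Batf3 were low at 13.6 to 38.7 CPM. Of the 11, 4 were higher in activated cells (15.9% of all tested genes) and 0 lower (11.7%). The 4 were Ccr7, at a mean of 1798 against 638 CPM, Zbtb46, at 89.5 against 44.8 CPM, Irf8 and Ciita. The 7 that did not pass all had lower means in activated cells, among them H2-Aa, at 2132 against 2764 CPM. A fit with the replicate number as a block called 4 of the 11 higher (20.0% of all tested genes in that fit) and 2 lower (17.2%). The 5 NK cell and the 8 neutrophil markers summed to under 1 CPM in every library. The 11 macrophage and monocyte markers summed to 1431 to 1960 CPM in activated and 1570 to 1926 CPM in non-activated libraries, ranges that overlap. The 5 B cell markers summed to 2.08 to 3.14 CPM in activated and 0.457 to 0.730 CPM in non-activated libraries, with 4 of them under 1 CPM throughout, and the 6 mast cell and basophil markers to 21.8 to 40.8 and 64.3 to 71.8 CPM, almost all of it Kit. Both libraries numbered 1 stood apart from the other 4 in T cell receptor transcripts and in Chil1, which is not a T cell receptor gene. Chil1 was at 348 (activated) and 295 CPM (non-activated) there and at 0.0840 to 0.735 CPM elsewhere. Trac reached 7420 (activated) and 7444 CPM (non-activated) there and 2.73 to 27.8 CPM elsewhere, and Trav14d-1 was at 2691 and 2732 against 1.09 to 8.90 CPM. The 15 T cell markers summed to 7574 CPM in each of these 2 libraries and to 44.2 to 60.0 CPM in the other 4, while the CD3 genes Cd3e, Cd3d and Cd3g did not exceed 1.90 CPM anywhere. Of the 7 T cell markers tested, 2 were higher in activated cells (15.9% of all tested genes) and 0 lower (11.7%). These were Lck, at 5.17, 4.02 and 3.92 against 0.685, 1.22 and 1.09 CPM, and Cd247, at a mean of 3.78 against 1.65 CPM. With the replicate number as a block 3 were higher and 1 lower. Cd28 went the other way, at a mean of 17.3 against 32.6 CPM. Without Trac the T cell list summed to 154, 35.4 and 32.2 CPM in activated and 130, 48.4 and 44.2 CPM in non-activated replicates 1 to 3. Of the 13946 genes tested, 11 were over 2-fold above and 15 over 2-fold below the other 4 libraries in both replicate 1 libraries. The members' results are therefore also given without both replicate 1 libraries. The part of these dendritic, T and B cell marker transcripts, and of Kit, in the results below was not tested.

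The sequences upstream of 4 of the genes are shown for what surrounds their start sites. Irak2 and Ticam1 were called lower in activated cells by edgeR without a block, calls that some alternatives lost. Myd88 and Irak1 were taken because their windows held a searched motif. The sequences are the 250 bases before the annotated start, 5′ to 3′ on the gene's strand, from RefSeq on GRCm38.p6. Capitals mark motif matches.
Irak2, chr6:113638217-113638466, plus strand: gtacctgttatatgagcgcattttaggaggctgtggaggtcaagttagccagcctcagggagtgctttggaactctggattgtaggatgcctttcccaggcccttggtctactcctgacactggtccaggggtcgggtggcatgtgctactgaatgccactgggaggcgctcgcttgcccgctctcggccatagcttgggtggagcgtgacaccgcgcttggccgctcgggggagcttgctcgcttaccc
Ticam1, chr17:56276768-56277017, minus strand: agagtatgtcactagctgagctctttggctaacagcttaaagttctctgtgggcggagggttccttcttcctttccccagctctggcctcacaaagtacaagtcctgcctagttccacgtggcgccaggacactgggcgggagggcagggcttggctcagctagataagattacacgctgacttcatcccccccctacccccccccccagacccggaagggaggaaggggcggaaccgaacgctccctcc
Irak1, chrX:74023922-74024171, minus strand: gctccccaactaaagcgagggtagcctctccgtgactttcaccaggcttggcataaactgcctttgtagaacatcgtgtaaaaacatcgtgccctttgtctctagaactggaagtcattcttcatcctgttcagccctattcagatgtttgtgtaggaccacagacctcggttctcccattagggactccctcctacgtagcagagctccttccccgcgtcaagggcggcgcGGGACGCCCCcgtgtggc
Myd88, chr9:119340019-119340268, minus strand: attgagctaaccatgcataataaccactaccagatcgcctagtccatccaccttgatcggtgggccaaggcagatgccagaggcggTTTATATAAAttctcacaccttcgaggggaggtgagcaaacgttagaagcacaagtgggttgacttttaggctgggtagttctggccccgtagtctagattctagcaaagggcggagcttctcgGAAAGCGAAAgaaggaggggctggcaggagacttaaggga

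Windows of 300 bases, from 250 before to 50 after the start, matched 8 of the 10 genes, with 11 windows in all; Ticam2 and Ly96 had no entry. On both strands 5 motifs were searched. The ISRE-type repeat (GAAA, any 2 bases, GAAA), the element that interferon regulatory factors bind, was found once, in Myd88, at bases -40 to -31 (base -1 is the last before the start), and in 3.44% of all 32851 windows. The NF-kappaB consensus was found in both overlapping Irak1 windows, at bases -18 to -9 of the one shown, where it reads as a match on both strands, and in 8.46% of all windows. TATAAA was found in Myd88 at -164 to -159 and -160 to -155, on opposite strands and overlapping, and in 13.6% of all windows. Neither the AP-1 motif TGANTCA (7.81% of all windows) nor the CRE TGACGTCA (1.79%) was found in a window of these genes, and the Irak2 and Ticam1 windows held none of the 5. These are letter matches in short windows, not sites. The GC content of the members' windows ran from 46.7% to 69.0%, and the median of all windows was 52.7%.

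Per transcript length, Irak2, Tbk1 and Irak1 were the abundant members and Irak4 and Tirap the scarce ones. TPM, which divides by transcript length, allows levels to be compared between genes. In non-activated cells Irak2 had the highest level, 119 ± 4.15 TPM (SD, n = 3, as for all means below). Next came Tbk1 at 91.9 ± 3.80 TPM and Irak1 at 71.1 ± 4.15 TPM, each apart from its neighbours over the 3 libraries. Ly96 at 44.8 ± 3.74 TPM and Myd88 at 43.9 ± 1.03 TPM overlapped. Below them, without overlap, lay Ticam1 at 34.7 ± 1.44, Irak3 at 27.8 ± 2.32, Ticam2 at 22.1 ± 2.82, Irak4 at 9.55 ± 1.37 and Tirap at 7.47 ± 0.205 TPM. Irak4, the kinase that acts first in the MyD88 complex, thus lay below both Irak1 and Irak2 in TPM in every library. In activated cells the low end of the order was alike, with Irak4 at 10.4 ± 0.411 and Tirap at 8.06 ± 1.09 TPM. At the top, Tbk1 at 99.1 ± 5.57 and Irak2 at 90.6 ± 7.93 TPM overlapped, as did Ly96 with Myd88, Irak3 with Ticam1, and Ticam1 with Ticam2.

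**Figure D1:**
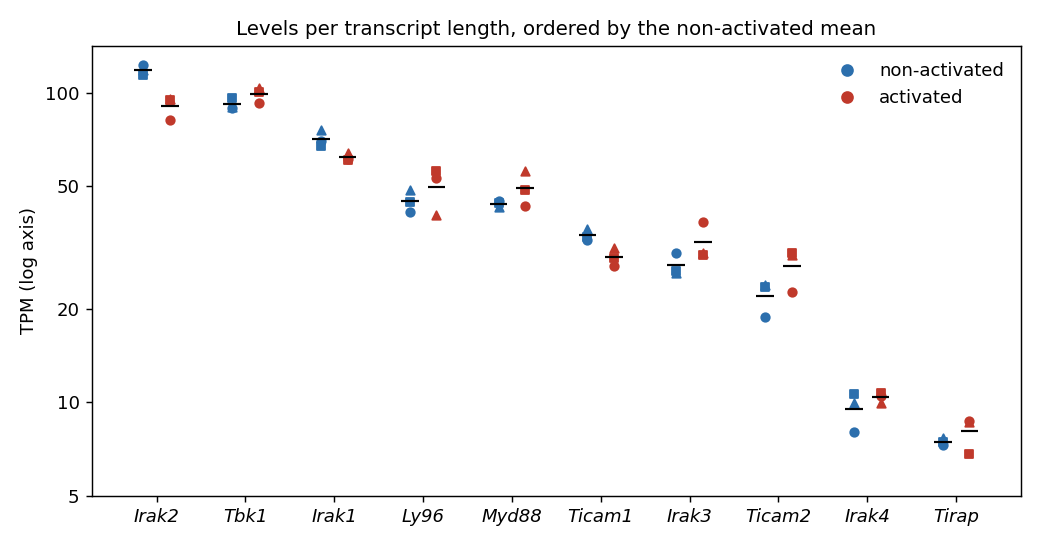
Deposited TPM (log axis) of the 10 genes in each library, with non-activated libraries in blue, activated in red, replicates 1, 2 and 3 as circle, square and triangle, and the mean of 3 as a bar. Irak2, Tbk1 and Irak1 lie above 60 TPM in every library and Irak4 and Tirap below 11 TPM.

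Differences between the groups were small. Irak2 and Ticam1 fell and none of the 10 rose when edgeR's quasi-likelihood test was run on all genes with a threshold of 0.05 on the adjusted p, and 8 did not pass. Of all tested genes 27.6% were called, 11.7% lower and 15.9% higher, so 2 of 10 lower and 0 of 10 higher is not set apart from the background. At an unadjusted p of 0.05 in edgeR 3 were higher (21.5% of all tested genes) and 3 lower (18.0%). DESeq2 and limma-voom each called 0 of the 10 higher (16.0% and 15.6% of all tested genes) and 2 lower (13.7% and 11.8%). The fitted folds ran from 0.789 (Irak2) to 1.26 (Ticam2). The 95% intervals of the log2 differences all lay between -0.57 and 0.61. The median absolute log2 difference was 0.22 over the 10 genes and 0.28 over all tested genes, and 42.5% of tested genes differed by more than Irak2 did. The signed median was 0.20, against 0.0064 over all tested genes, with 7 genes above 0 and 3 below. By CPM, all 3 activated libraries lay above all non-activated ones for 2 genes, Myd88 and Tbk1 (23.9% of all tested genes), and below for 3, Ticam1, Irak1 and Irak2 (20.7%). In bulk RNA a smaller number of cells of a type and less RNA per cell cannot be told apart.

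Libraries of the same replicate number deviated together, so a fit with that number as a block was made too. In it edgeR called 3 of the 10 genes higher, Ticam2, Irak3 and Tbk1 (20.0% of all tested genes higher in that fit), and 3 lower, Irak2, Ticam1 and Irak1 (17.2% of all tested genes). Within pairs, 6 of the 10 genes were higher in activated cells in all 3 pairs, which held for 33.0% of tested genes, and 3 were lower in all 3, which held for 31.1%. Ly96 was the exception.

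**Figure D2:**
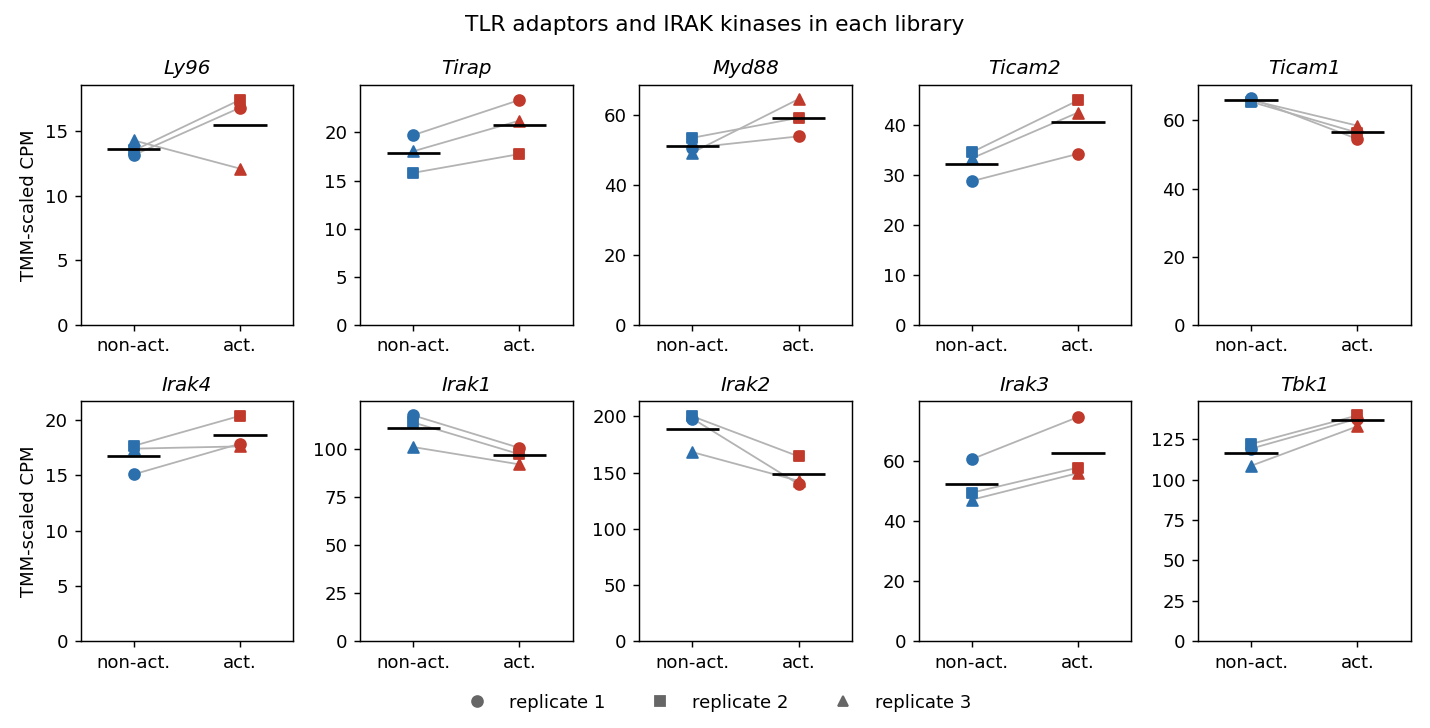
TMM-scaled CPM of each gene in the non-activated (blue) and activated (red) libraries, each axis starting at 0, with grey lines joining libraries of the same replicate number and bars at the group means. Lines run down in all 3 pairs for Ticam1, Irak1 and Irak2 and up in all 3 pairs for the other genes but Ly96.

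At the receptor, Ly96 encodes the LPS-binding partner of TLR4. It measured 13.1, 13.5 and 14.3 CPM in the non-activated and 16.8, 17.4 and 12.1 CPM in the activated replicates 1 to 3. The third activated library lay below all the others and the other two above them, so the groups overlapped and the log2 difference of 0.18 ± 0.15 (SE) did not pass (edgeR adjusted p = 0.42). It was 0.091 and 0.071 without activated replicate 1 or 2, 0.31 without activated replicate 3, and 0.065, 0.076 and 0.36 without both libraries of replicate 1, 2 or 3. Tlr4 itself was lower in activated cells, at 127 ± 16.0 against 186 ± 15.3 CPM, and passed under all alternatives (edgeR adjusted p = 0.00663, and at most 0.0436). In TPM, Ly96 over Tlr4 gave 0.569, 0.583 and 0.690 in non-activated and 1.15, 1.03 and 0.889 in activated libraries 1 to 3, without overlap. This ratio was 1.66-fold higher in activated cells (exact permutation test, two-sided, p = 0.1, the smallest that 3 against 3 allows; adjusted over the 4 ratios tested, 0.133).

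Of the adaptors of the MyD88 branch, Tirap, which links MyD88 to TLR2 and TLR4 at the membrane, stood at 19.7, 15.8 and 18.0 CPM in non-activated and 23.4, 17.8 and 21.2 CPM in activated replicates 1 to 3. The groups overlapped, the activated library was the higher of each pair (1.19-, 1.12- and 1.18-fold), and the log2 difference of 0.22 ± 0.13 (SE) missed the threshold without the block (edgeR adjusted p = 0.251) and with it (0.0798). With 1 library left out this difference ran from 0.11 (without activated replicate 1) to 0.31 (without activated replicate 2). It was 0.19 without both replicate 1 libraries, and 0.090 and 0.0996 on the TPM scale. Myd88, the shared adaptor of most Toll-like and IL-1 receptors, gave 50.7, 53.5 and 49.3 CPM in non-activated and 53.9, 59.3 and 64.6 CPM in activated cells. All 3 activated values lay above the non-activated ones, the nearest by less than 1 CPM, yet the 1.16-fold difference did not pass (edgeR adjusted p = 0.108, and 0.0689 with the block). On the log2 scale the difference was 0.21, with a 95% interval of 0.01 to 0.41. With 1 library left out it ran from 0.13 (without activated replicate 3) to 0.26 (without activated replicate 1). Without both libraries of replicate 1, 2 or 3 it was 0.25, 0.24 and 0.12. In TPM the groups overlapped, at 44.81, 44.09 and 42.77 in non-activated and 43.05, 48.42 and 55.92 in activated replicates 1 to 3. There the log2 difference was 0.15 (limma adjusted p = 0.376 and 0.374).

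The adaptors of the TRIF branch differed in sign. Ticam2, which encodes the bridge between TLR4 and TRIF, measured 28.7, 34.5 and 33.3 CPM in non-activated and 34.2, 44.9 and 42.5 CPM in activated cells. Activated replicate 1, at 34.2 CPM, lay below non-activated replicate 2, so the groups overlapped, but within pairs the folds were 1.19, 1.30 and 1.28. Its log2 difference of 0.33 ± 0.12 (SE) did not pass without the block (edgeR adjusted p = 0.0778). It passed with the block (0.00773), without activated replicate 1 (0.0169) and without both replicate 1 libraries (0.0326), within 0.00773 to 0.286 over all alternatives. Ticam1, which encodes TRIF, measured 66.5, 65.5 and 65.9 CPM in non-activated cells and fell to 54.5, 56.4 and 58.5 CPM in activated ones. No activated library reached the lowest non-activated one, and the fold was 0.856 (edgeR adjusted p = 0.0432, and 0.0275 with the block). The call was lost without any 1 of the 6 libraries (edgeR adjusted p 0.0511 to 0.126) and without both libraries of any 1 replicate number (0.121 to 0.197), on the deposited TPM (limma adjusted p 0.129 and 0.13) and without a filter (0.0784), within 0.0275 to 0.197 over all alternatives, while the sign held in each.

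Relative to Myd88, Ticam1 was lower in every activated library. The ratio of Ticam1 to Myd88 in TPM was 0.747, 0.778 and 0.848 in non-activated and 0.642, 0.604 and 0.565 in activated replicates 1 to 3, without overlap (0.763 times the non-activated ratio; exact permutation test, two-sided, p = 0.1, adjusted 0.133). Of the TPM summed over Tirap, Myd88, Ticam2 and Ticam1, Ticam1 made up 32.0% ± 0.731 in non-activated and 25.9% ± 1.07 in activated cells. The sum itself overlapped between the groups, at 108 ± 3.28 and 114 ± 12.0 TPM.

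In the IRAK family, Irak2 was the gene called lower in both fits and Irak1 in the blocked fit alone of the 2. Irak4, the kinase that MyD88 recruits first, measured 15.1, 17.6 and 17.4 CPM in non-activated and 17.8, 20.4 and 17.6 CPM in activated cells. These ranges overlapped. A log2 difference of 0.15 ± 0.11 (SE) missed the threshold at an edgeR adjusted p of 0.339, and of 0.233 with the block. With 1 library left out this difference ran from 0.071 (without activated replicate 2) to 0.19 (without non-activated replicate 2). Without both libraries of replicate 1, 2 or 3 it was 0.095, 0.13 and 0.22. Irak1, its substrate, measured 118, 114 and 101 CPM in non-activated and 101, 97.3 and 92.0 CPM in activated cells. The highest activated value, 100.6 CPM, lay just under the lowest non-activated one, 101.0 CPM, and each activated library was the lower of its pair. The 0.872-fold level did not pass without the block (edgeR adjusted p = 0.122) and passed with it (0.0473), within 0.0473 to 0.367 over all alternatives. Without both replicate 1 libraries the log2 difference was -0.20 (edgeR adjusted p = 0.177).

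Irak2, the family member that sustains signalling late in the response, measured 198, 200.2 and 168 CPM in non-activated and 140, 164 and 143 CPM in activated replicates 1 to 3. Every activated library lay below every non-activated one, though activated replicate 2 and non-activated replicate 3 were close. Irak2 fell to 0.789 times the non-activated level, a log2 difference of -0.34 ± 0.10 (SE; edgeR adjusted p = 0.0356, and 0.00925 with the block). Pair by pair the folds were 0.705, 0.822 and 0.848, the first being the pair with high T cell receptor transcripts. The call was lost without activated replicate 1 or 3 (edgeR adjusted p = 0.059 and 0.0878), without non-activated replicate 1 or 2 (0.108 and 0.122) and without both libraries of any 1 replicate number (0.0865 to 0.126), within 0.0075 to 0.126 over all alternatives. On the deposited TPM it held (limma adjusted p = 0.022). The genes whose log2 CPM followed Irak2 most closely over the 6 libraries were Sgta, Cers2 and Usp15 (Pearson r 0.998, 0.996 and 0.996), a description over points that share libraries and depth. Each of the 3 stood at 0.816 to 0.868 times the non-activated level in the fit and did not pass.

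Irak3, which encodes IRAK-M, measured 60.7, 49.5 and 47.2 CPM in non-activated and 74.8, 57.9 and 56.1 CPM in activated cells. The replicate 1 library was the highest of each group, and activated replicates 2 and 3 lay below non-activated replicate 1. Within pairs the folds were 1.23, 1.17 and 1.19. Without the block the log2 difference of 0.26 ± 0.14 (SE) did not pass (edgeR adjusted p = 0.196), and with the block it did (0.0143), within 0.0143 to 0.583 over all alternatives. With 1 library left out the difference ran from 0.10 (without activated replicate 1) to 0.38 (without non-activated replicate 1). Without both replicate 1 libraries the difference was 0.22 (edgeR adjusted p = 0.116).

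The family's summed level was lower in activated cells. Summed over the 4 genes, TPM was 231, 219 and 230.5 in non-activated and 191, 196 and 200.1 in activated replicates 1 to 3, without overlap. Irak2 made up 53.1%, 52.2% and 51.5% of that sum in non-activated and 42.6%, 48.2% and 47.9% in activated cells. The share of Irak3 was 12.2% ± 0.886 in non-activated and 16.8% ± 2.75 in activated cells, that of Irak4 4.22% ± 0.702 and 5.31% ± 0.301, and that of Irak1 31.3% ± 1.34 and 31.6% ± 0.519. Shares of a sum are bound to each other, so a lower Irak2 raises the others. These sums and shares were computed after the members' values were seen and were not tested. The fixed ratios were tested: Irak2 to Irak1 was 1.67 ± 0.0948 in non-activated and 1.46 ± 0.113 in activated cells, without overlap (exact permutation test, two-sided, p = 0.1, adjusted 0.133). Irak3 to Irak4 was 2.98 ± 0.714 and 3.17 ± 0.430 with overlap (exact permutation test, two-sided, p = 0.6).

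**Figure D3:**
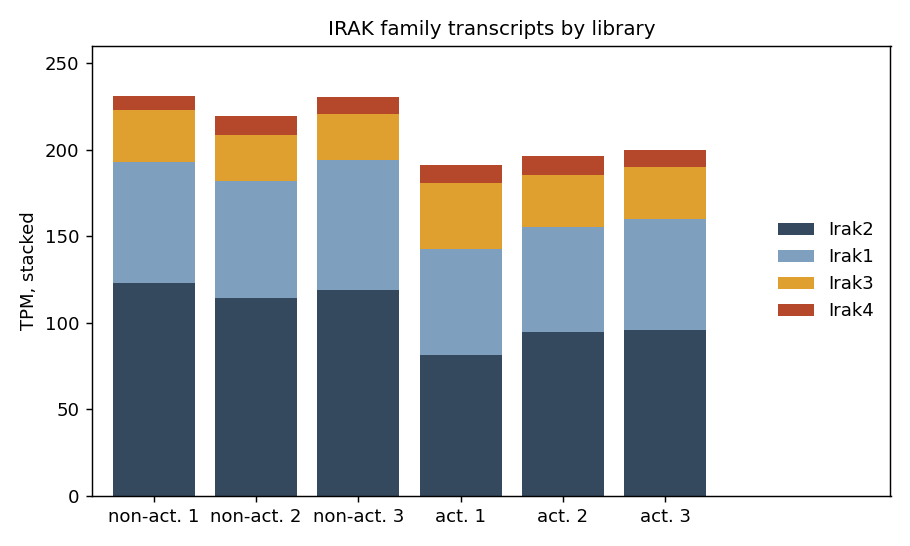
Deposited TPM of the 4 IRAK genes stacked for each library. The 3 non-activated stacks reach 219 to 231 TPM and the 3 activated ones 191 to 200.1 TPM, with Irak2 the largest layer in all 6.

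Tbk1, the kinase downstream of TRIF that phosphorylates IRF3, measured 119, 122 and 108 CPM in non-activated and 138, 140 and 133 CPM in activated cells. The groups did not overlap, and each activated library was the higher of its pair (1.15-, 1.14- and 1.22-fold). The log2 difference of 0.23 ± 0.08 (SE) missed the threshold without the block (edgeR adjusted p = 0.0551) and passed with it (0.0252) and with a stricter filter (0.0362), within 0.0252 to 0.406 over all alternatives. Without both replicate 1 libraries the log2 difference was 0.22 (edgeR adjusted p = 0.131). On the TPM scale the difference was smaller, at a log2 of 0.11 (limma adjusted p = 0.4). The gene length that RSEM gives, a mean over transcripts weighted by their share, was 2060, 2044 and 2049 bases in non-activated and 2291, 2202 and 2127 bases in activated replicates 1 to 3. Tbk1 was the only one of the 10 genes with lengths that did not overlap between groups, longer in activated cells, which held for 5.21% of tested genes, and none was shorter without overlap (4.62%). The tables list 7 transcripts for Tbk1 and give no value for each.

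**Figure D4:**
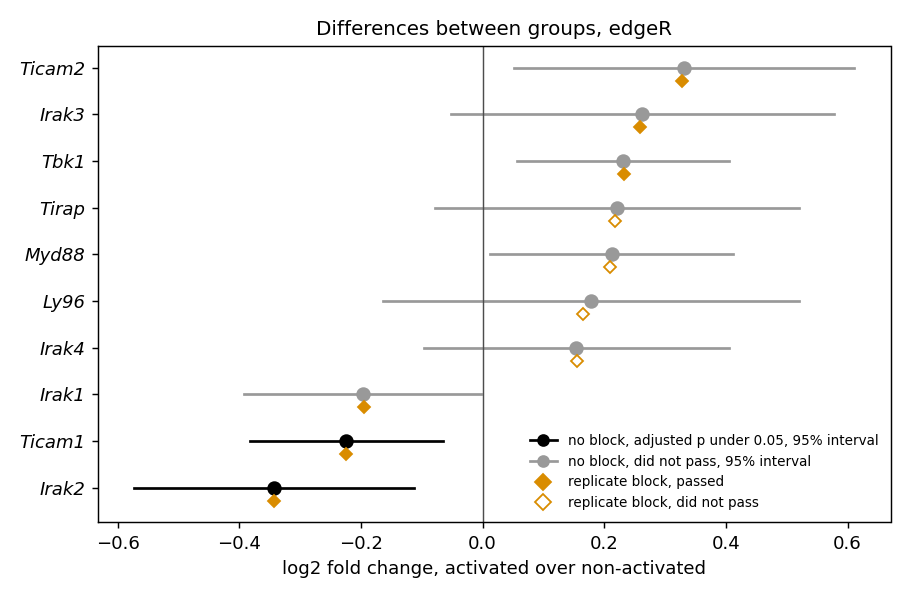
Log2 fold change of each gene, activated over non-activated, from edgeR without a block (circles with 95% intervals) and with the replicate block (diamonds). All lie between -0.34 and 0.33. Irak2 and Ticam1 pass in both fits, and Irak1, Ticam2, Irak3 and Tbk1 pass in the blocked fit alone of the 2.

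Around these genes, other parts of the pathway held larger differences. Of the 92 genes in 6 lists drawn from textbook pathways, with earlier results of these data known, 87 were tested. The lists are described by their counts, to be read against 15.9% higher and 11.7% lower among all tested genes (with the block 20.0% and 17.2%), and by their median beside 0.0064.

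Directly below the IRAK kinases, 6 of 18 tested genes rose, 0 fell and 12 did not pass (median log2 0.05; with the block 8 rose and 2 fell). Of the 18, edgeR had 2 lower at an unadjusted p of 0.05, DESeq2 called 1 lower and limma-voom 0. Ikbkb, which encodes the NF-kappaB activating kinase IKK-beta, rose from 185 ± 5.49 to 342 ± 12.8 CPM. Traf6, the ubiquitin ligase that IRAK1 and IRAK2 engage, rose from 112 ± 5.32 to 155 ± 13.8 CPM. Tab2, which links TRAF6 to the kinase TAK1, rose 1.42-fold, and Tifa, a TRAF6 partner, 1.54-fold. In the TRIF and TBK1 list 6 of 13 rose and 1 fell (median 0.22; with the block 6 rose and 3 fell). Traf3, which joins TRIF to TBK1, rose from 104 ± 5.88 to 222 ± 15.5 CPM, and Ikbke, the kinase most like TBK1, from 131 ± 12.0 to 244 ± 24.6 CPM. Fadd, the death receptor adaptor, rose 2.08-fold and Tmem173, which encodes STING, 1.80-fold. The Tifa and Tmem173 calls were lost without both replicate 3 libraries (edgeR adjusted p = 0.0609 and 0.082, the highest over their alternatives; the lowest were 5.55e-05 and 7.19e-06, from DESeq2).

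Among negative regulators 6 of 16 rose and 4 fell (median 0.19; with the block 8 rose and 5 fell). Irf4, whose product binds MyD88, rose 2.46-fold, the phosphatase gene Ptpn6 2.08-fold, Trim30a 2.52-fold and Tnip1, a partner of A20, 1.73-fold. Of the receptors and their accessory genes 4 of 17 rose and 5 fell (median -0.04; with the block 5 rose and 6 fell). Tlr1 rose 1.73-fold, and Tlr9 fell to 0.421 and the TLR chaperone gene Cnpy3 to 0.735 times the non-activated level. Tlr13 was lower by counts (0.669 times) but higher, without passing, on the deposited TPM, at a log2 of 0.48 (limma adjusted p 0.636 and 0.639, the highest over its alternatives; the lowest was 1.36e-07, from DESeq2).

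IL-1 family receptors, which share MyD88 and the IRAK kinases with the Toll-like receptors, were listed with their decoys and antagonists, Il1r2, Il1rn and Il18bp. Of the 8 tested genes of this list 3 were higher, Il1rn at 1.40-fold among them, and 2 lower (median 0.30, mean -0.63, opposite in sign). With the block 5 rose and 3 fell. Il1rl2, the IL-36 receptor gene, rose from 31.9 ± 2.18 to 51.8 ± 3.06 CPM, and the shared subunit Il1rap from 8.98 ± 0.699 to 15.2 ± 2.10 CPM, a call lost on the deposited TPM (limma adjusted p up to 0.0564, the highest over its alternatives; the lowest was 0.000108, from DESeq2). Both chains of the IL-18 receptor were low: Il18r1 fell from 1.93 ± 0.740 to 0.0971 ± 0.0150 CPM and Il18rap from 1.51 ± 0.572 to 0.207 ± 0.181 CPM. These 2 genes passed the count filter through the non-activated libraries only, so once there they had to differ. They are both of the list's lower calls, and without them the mean of the other 6, computed after seeing the data, was 0.32. The Il18rap call was lost without activated replicate 3, non-activated replicate 1 or 3, or both replicate 3 libraries (edgeR adjusted p 0.0513 to 0.117; the lowest over all alternatives was 0.000448, from DESeq2). Transcripts that LPS induces rose in 12 of 15 tested genes and fell in 0 (median 1.33; with the block 14 rose and 0 fell), and 0 were lower at an unadjusted p of 0.05 in edgeR or called lower by DESeq2 or limma-voom. Among them the NF-kappaB inhibitor gene Nfkbia rose from 557 ± 24.9 to 1128 ± 91.2 CPM, Il12b 7.89-fold, Il1b 2.51-fold and Il6 3.17-fold.

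**Figure D5:**
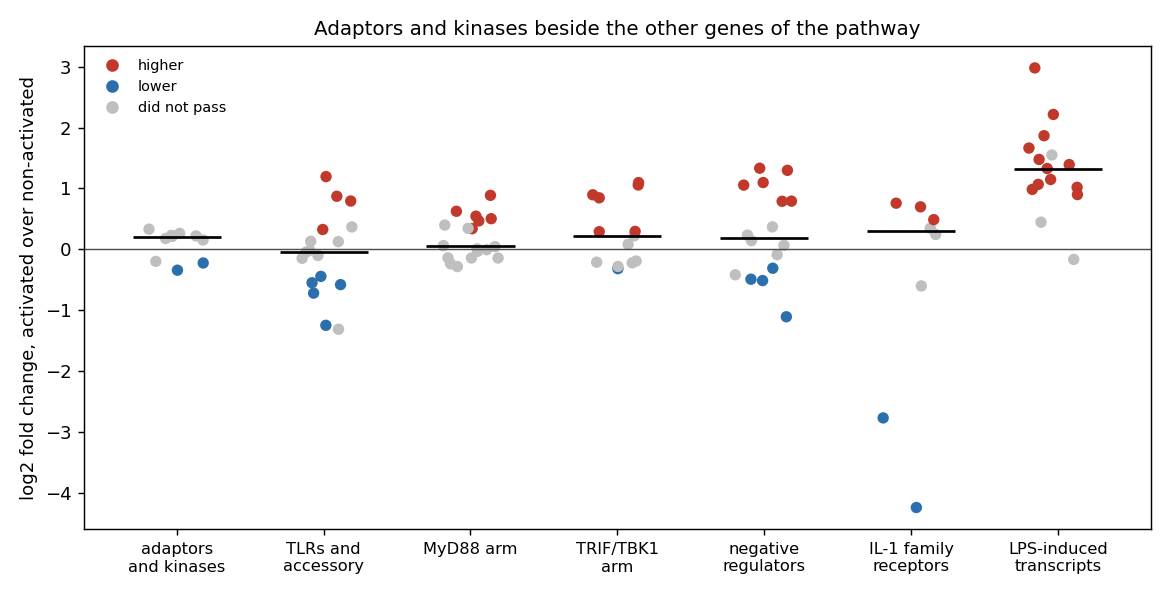
Log2 fold change of the 10 adaptor and kinase genes and of the tested genes of 6 pathway lists, 1 point a gene, coloured by edgeR's call, with a bar at each median. The adaptors and kinases lie within -0.34 and 0.33, while the LPS-induced transcripts have a median of 1.33.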

How the data were processed

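Per the labels' protocols, 200 ng of total RNA went into each RNA-seq library, the reads were single and of 60 nt, and strand is not mentioned. Per the file headers, the authors deposited RSEM gene tables with an expected count, a TPM and an isoform-weighted length for each gene; RSEM divides reads that match several genes. Per the submitters' processing notes the build was GRCm38; no source used here names the RNA aligner. Gene IDs were matched to symbols for 41597 of 41813 genes. RefSeq places other genes over parts of Tirap, Irak1 and Irak3, whose reads cannot be told apart without strand; Gm39318, over Tirap, had at most 6.09 counts.

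Expected counts were rounded and tested in edgeR 4.0.16 (R 4.3.3): filterByExpr by group (13946 genes), TMM, glmQLFit and glmQLFTest on group alone, with p-values adjusted over all genes by Benjamini-Hochberg (threshold 0.05). The SE is the log2 fold change over the root of F. Alternatives were RLE and upper-quartile factors, other filters, DESeq2 1.42.0, limma 3.58.1 (voom, and log2 of TPM plus 1 or 0.1), a replicate block, and libraries left out. The script was tested on simulated data. edgeR's common biological variation between libraries was 16.9%, and member counts ran from 296 to 5206. Named pathway genes were the members, up to 4 passing genes of smallest adjusted p per list, and Tlr4 for the fixed ratio to Ly96. The listed IL-1 family decoys and antagonists were named too, as were the 3 genes most correlated with the most changed passing member in each direction. Members and lists were chosen with earlier results of these data known. Libraries of the same number deviated together (r 0.40, 0.31 and 0.19, against -0.31 to 0.04 between different numbers). Deviations from a group mean cancel within the group, so these correlations are bound to each other. No label says what a number marks, and whether the libraries are paired is not known. No 2 replicates of a group agreed within sampling noise (chi-square per degree of freedom 15.2 to 71.4). The planned comparison of protein sequences was not run.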

Additional observations from a re-analysis of the deposited data

How the results depend on the processing

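The sign of each member's difference held in all 18 alternatives, but most calls were near the threshold. Members called higher, 0 in edgeR, were 1 with a filter of 5 CPM in 3 libraries (Tbk1), 3 with the replicate block, 0 to 1 with any 1 library left out and 1 without both replicate 1 libraries. Members called lower, 2 in edgeR, were 1 without a filter, 1 on log2(TPM + 1) and 1 on log2(TPM + 0.1), 3 with the replicate block, 0 to 1 with 1 library left out, and 0 without both libraries of replicate 1, of replicate 2 or of replicate 3. Pathway list genes called higher were 37 (46 with the replicate block), and those called lower were 12, against 7 on log2(TPM + 1) and 19 with the block. All tested genes called higher numbered 2216, and 1277 and 1185 without both libraries of replicate 2 or 3. Those called lower numbered 1632, 1061 to 1673 with 1 library left out, and 775 and 600 without both libraries of replicate 2 or 3. The log2 difference in the ratio of Irak3 to Irak4, 0.11, ran from -0.0074 (without non-activated replicate 2) to 0.30 with 1 library left out. Tlr13 turned on TPM (log2 -0.58 to 0.48). The cause was not tested. With 3 libraries a group, a p that missed the threshold does not show equal levels. Leaving out 1 library moved the summed IRAK difference from -31.2 to between -35.0 and -28.9 TPM, an alternative chosen after seeing the data.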
